A study of Mus musculus with 13 samples.

Results

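A group of 10 genes of the dorsal-ventral axis of the spinal cord was followed by symbol through a table of 39171 genes: the transcription factors Pax3, Pax6, Pax7, Gsx1, Nkx2-2 and Nkx6-1, and the secreted proteins Reln, Slit1, Slit2 and Sema3a. All 10 were found in the table. The 13 libraries came from cells sorted from the spinal cord of C57BL/6 mice, either astrocytes carrying green fluorescent protein under Aldh1l1 or microglia carrying the surface protein CD11b (Itgam). The groups were 4 libraries of IL-33 KO astrocytes (postnatal day 12 for libraries 1, 3 and 4, day 9 for library 2), 3 of WT littermate astrocytes (day 12 for libraries 1 and 2, day 9 for library 3), 3 of IL-33 KO microglia and 3 of WT littermate microglia (all day 12). The KO mice lack Il33, a cytokine of the IL-1 family. The Aldh1l1 reporter is carried by the sorted astrocytes of both genotypes. The labels call the libraries of a group biological replicates and do not say how many animals went into each.

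During development, sonic hedgehog from the floor plate and BMP and Wnt signals from the roof plate divide the neural tube into domains of progenitors, each with its own set of homeodomain and paired-box factors. Pax3, Pax7 and Gsx1 mark dorsal progenitors, Pax6 a broad middle zone, and Nkx6-1 and Nkx2-2 ventral ones. Astrocytes keep part of this code after birth: in the mouse cord, white matter astrocytes of different dorsal-ventral position are known to be marked by combinations of Reln and Slit1 under Pax6 and Nkx6-1, and ventral astrocytes by Sema3a. Reelin steers the placement of neurons, Slit proteins repel axons through Robo receptors, and the semaphorin Sema3a repels axons through neuropilins and plexins.

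Values were FPKM, fragment counts scaled by transcript length and by library, so levels can be set side by side between genes. The FPKM of all genes did not sum to the same total in each library. It came to 1683010 to 3837230 in the astrocytes, highest in WT astrocyte library 2, and to 1188570 to 1430190 in the microglia. Il33 itself was at 0.424 to 2.28 FPKM in the 4 KO astrocyte libraries, against 96.3 to 113 FPKM in the 3 WT astrocyte libraries. Aldh1l1 was at 78.4 to 104 FPKM in the astrocytes and at 0.0971 to 0.642 FPKM in the microglia, and Itgam at 0.0993 to 11.7 FPKM in the astrocytes and 532 to 648 FPKM in the microglia. The low values of the table are stepped, which put the depth of the astrocyte libraries at 33.9% to 63.1% of the deepest library and that of the microglia at 73.5% to 100%. WT astrocyte library 2 was the shallowest. A value of exactly 0 in this table can be a failed estimate: Slc1a2, a glutamate transporter of astrocytes, was listed at 0 in KO astrocyte library 3 and WT astrocyte library 1, and at 1631 to 3996 FPKM in the other 5 astrocyte libraries.

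Reln was the most abundant of the 10 in astrocytes, and 3.32% of the 21224 protein-coding genes were above its mean. It was at 79.5, 125, 91.6 and 99.9 FPKM in KO astrocyte libraries 1 to 4 and at 60.6, 102 and 168 FPKM in WT astrocyte libraries 1 to 3, against 0.775, 0.828 and 1.00 FPKM in KO microglia and 0.736, 3.38 and 0.842 FPKM in WT microglia. Every astrocyte library was above every microglia library. The gene lies on the minus strand of chromosome 5 (GRCm38, chr5:21884454-22344702) and spans 460249 bp, longer than all but 1.25% of protein-coding genes.

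Other genes of the group lie on the same chromosome. Reln, Slit2, Sema3a, Nkx6-1 and Gsx1, 5 of the 10, lie on chromosome 5, which holds 5.76% of protein-coding genes. The promoters of the most abundant of the 10 and of the pair whose KO and WT astrocyte libraries did not overlap are shown from RefSeq (GRCm38.p6), from 250 bases before to 50 bases after the start, 5′ to 3′ on the strand of the gene. Capitals mark the motifs found there: GC boxes (GGGCGG), an E-box (CACGTG) and a TATA box (TATAAA).
Reln, chr5:22344656-22344955, minus strand: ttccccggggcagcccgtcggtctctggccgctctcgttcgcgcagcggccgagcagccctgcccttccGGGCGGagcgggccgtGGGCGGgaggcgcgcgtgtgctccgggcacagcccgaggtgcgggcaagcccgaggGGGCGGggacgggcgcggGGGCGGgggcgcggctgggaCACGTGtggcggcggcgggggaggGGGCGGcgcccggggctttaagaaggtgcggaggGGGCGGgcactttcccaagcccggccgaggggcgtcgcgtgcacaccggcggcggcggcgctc
Slit2, chr5:47982905-47983204, plus strand: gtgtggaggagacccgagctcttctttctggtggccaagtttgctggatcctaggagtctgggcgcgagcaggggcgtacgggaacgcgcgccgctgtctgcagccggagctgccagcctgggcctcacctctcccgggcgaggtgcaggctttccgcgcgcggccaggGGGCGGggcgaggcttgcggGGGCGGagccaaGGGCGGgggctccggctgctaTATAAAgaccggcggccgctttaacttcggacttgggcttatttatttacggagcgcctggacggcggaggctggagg
Nkx6-1, chr5:101664662-101664961, minus strand: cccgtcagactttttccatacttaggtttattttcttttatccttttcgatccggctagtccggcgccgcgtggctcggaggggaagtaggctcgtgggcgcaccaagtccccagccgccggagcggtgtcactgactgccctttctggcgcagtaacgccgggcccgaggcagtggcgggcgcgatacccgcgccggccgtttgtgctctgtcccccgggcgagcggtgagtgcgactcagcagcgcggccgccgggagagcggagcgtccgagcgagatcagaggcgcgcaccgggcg
The Reln promoter was 80.7% G or C, a share reached by 0.825% of the 32851 promoters in the table, and held 47 CpG dinucleotides, 6 GC boxes and 1 E-box. The Slit2 promoter was 68% G or C, with 30 CpG, 3 GC boxes and 1 TATA box, and the Nkx6-1 promoter was 67.3% G or C with 40 CpG and held none of the motifs searched. The median promoter was 52.7% G or C with 7 CpG. Motifs were searched on both strands and did not overlap each other: a GC box stood in 35.7% of all promoters, a CCAAT box (CCAAT) in 37.4%, a TATA box in 13.6%, an E-box in 7.15%, the homeodomain core TAATTA in 5.29% and the Gli sequence GACCACCCA in 0.253%. Of the 10 genes, 8 had an entry in that table.

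Among the transcription factors, Pax6 was the most abundant, with 39.3 ± 23.4 FPKM in astrocytes (SD, n = 7) and 1.63 ± 0.991 FPKM in microglia (SD, n = 6). It was at 41.7, 37.7, 24.3 and 36.7 FPKM in KO astrocytes and at 21.4, 89.3 and 24.1 FPKM in WT astrocytes. The spread lay in WT astrocyte library 2, the shallowest, with the highest Pax6 of all libraries. That library also had the highest summed level of 9 transcription factors of dorsal horn neurons, 12.4 FPKM against 0.434 to 5.15 FPKM in the KO astrocytes. Of those factors Tlx3, Prrxl1 and Tlx1 were at 0 in all WT astrocytes, and Lhx5 alone had a mean of at least 1 FPKM there, at 3.46 FPKM. The 13 general neuron markers summed to 98.0 FPKM in WT astrocyte library 2 and to 96.4 and 35.3 FPKM in WT astrocyte libraries 1 and 3. In KO astrocytes they summed to 55.0 to 355 FPKM. The part of neurons in the Pax6 value of WT astrocyte library 2 was not tested.

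Nkx2-2, the factor of the most ventral progenitors and of maturing oligodendrocytes, was at 23.0, 12.8, 9.32 and 13.3 FPKM in KO astrocytes and at 25.6, 10.6 and 22.6 FPKM in WT astrocytes. In microglia it was at 2.54, 1.13 and 1.81 FPKM in KO and at 5.55, 3.36 and 3.11 FPKM in WT. The genotypes overlapped in astrocytes and did not overlap in microglia. Nkx6-1, a factor of motor neuron and ventral interneuron progenitors, was at 14.5, 20.9, 12.5 and 9.06 FPKM in KO astrocytes and at 8.18, 6.70 and 9.03 FPKM in WT astrocytes. Every KO astrocyte library was above every WT one, the closest pair being 9.06 and 9.03 FPKM. In microglia Nkx6-1 was at 0.0204 to 0.147 FPKM in KO and at 0.0095 to 2.09 FPKM in WT.

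The dorsal factors were low. Pax3, a regulator of dorsal neural tube and neural crest, was at 2.77, 3.82, 3.80 and 2.76 FPKM in KO astrocytes and at 5.05, 1.61 and 3.43 FPKM in WT astrocytes, and between 0.303 and 1.33 FPKM in all 6 microglia libraries. Pax7, its close relative, stayed below 0.5 FPKM everywhere: it was at 0.00669, 0.270, 0.0670 and 0.295 FPKM in KO astrocytes and at 0.483 and 0.132 FPKM in WT astrocytes 1 and 3, and was listed at 0 in WT astrocyte library 2 and in 5 of the 6 microglia libraries. Gsx1, which specifies dorsal interneurons, was at 1.22 and 1.07 FPKM in KO astrocyte libraries 1 and 4, was listed at 0 in the other 5 astrocyte libraries, and reached at most 0.0820 FPKM in microglia. Pax7 and Gsx1 missed the minimum for testing, a mean of 1 FPKM over the libraries of a fit, in every comparison.

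Of the guidance proteins after Reln, Slit2 was the most abundant. It was at 23.8, 10.1, 8.55 and 11.2 FPKM in KO astrocytes and at 6.14, 6.96 and 5.64 FPKM in WT astrocytes, and between 0.385 and 3.99 FPKM in microglia. All 4 KO astrocyte libraries were above all 3 WT ones, with KO library 1 well above the rest. Slit1 was at 2.91, 8.40, 3.86 and 4.52 FPKM in KO astrocytes and at 1.33, 2.12 and 10.3 FPKM in WT astrocytes, and at 0.243 to 2.85 FPKM in microglia. Its high values were those of the 2 libraries from day 9, 1 of each genotype. Sema3a was at 2.11, 2.89, 2.25 and 1.42 FPKM in KO astrocytes and at 5.85, 3.98 and 2.43 FPKM in WT astrocytes, and at 0.167 to 1.27 FPKM in microglia.

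**Figure D1:**
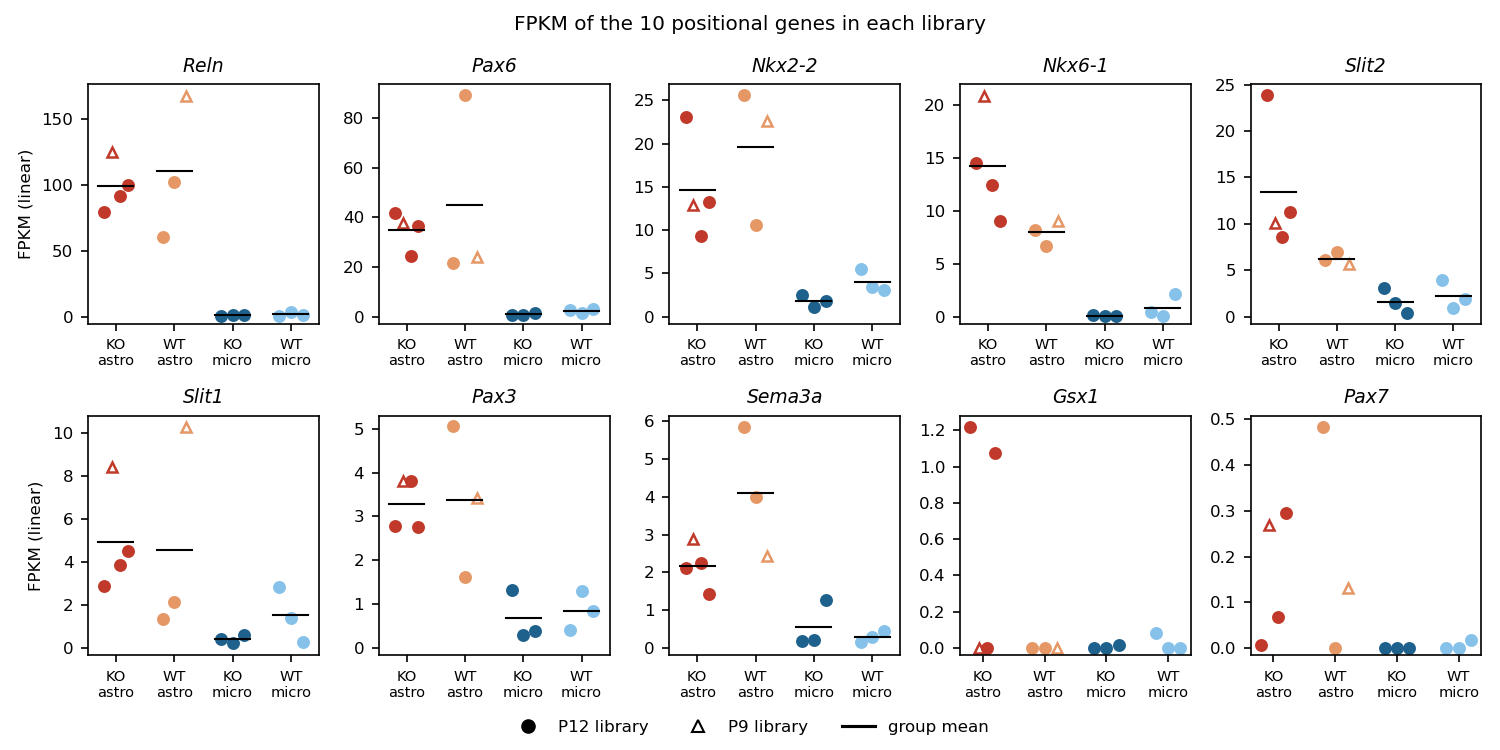
FPKM of the 10 genes (a panel each, with its own linear y axis) in each library of KO astrocytes, WT astrocytes, KO microglia and WT microglia; filled circles are libraries of day 12, open triangles those of day 9, and lines are group means (none for Gsx1 and Pax7, which have values listed at 0). Reln lies highest in astrocytes, at 60.6 to 168 FPKM, while Pax7 stays below 0.5 FPKM in all 13 libraries.

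By their means over the 7 astrocyte libraries the order of levels was Reln (104 FPKM), Pax6 (39.3), Nkx2-2 (16.8), Nkx6-1 (11.6), Slit2 (10.3), Slit1 (4.77), Pax3 (3.32), Sema3a (2.99), Gsx1 (0.327) and Pax7 (0.179), with values listed at 0 taken as 0. Only Sema3a and Gsx1, among neighbours in that order, had ranges that did not overlap. Within libraries, Reln was above Pax6 in 7 of 7 and Sema3a above Gsx1 in 7 of 7. Pax6 was above Nkx2-2, Slit2 above Slit1 and Slit1 above Pax3 in 6 of 7 libraries each, Nkx2-2 above Nkx6-1 and Pax3 above Sema3a in 5 of 7, Nkx6-1 above Slit2 in 4 of 7 and Gsx1 above Pax7 in 2 of 7.

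All 8 tested genes of the 10 were higher in astrocytes than in microglia. The test was limma on log2(FPKM + 1) over all 13 libraries, with age as a covariate, the 2 genotypes weighted equally and p-values adjusted by Benjamini-Hochberg over the 16258 genes tested, and a call needed an adjusted p under 0.05. Higher levels in astrocytes were called for 29.1% of those genes and a difference in either direction for 65.1%. Nkx6-1, Slit1, Pax3 and Sema3a had microglia means under 1 FPKM and so passed the minimum through their astrocyte level alone, and their calls add no support to the count. Over all genes tested the median difference was -0.30. Adding 1 before the logarithm shrinks the differences of low genes.

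Reln had the largest difference, 5.35 on the log2 scale (SE 0.26, limma adjusted p = 2.14e-08), and its mean FPKM was 82.4 times that of microglia. Pax6 followed with 3.96 (SE 0.35, limma adjusted p = 2.61e-06) and a mean 24.1 times higher. Nkx6-1 was higher by 2.94, Nkx2-2 by 2.17, Slit2 by 1.96, Sema3a by 1.53, Pax3 by 1.23 and Slit1 by 1.02, with limma adjusted p-values up to 0.0118, that of Slit1. In Reln, Pax6, Nkx2-2 and Slit2, the 4 with a microglia mean of at least 1 FPKM, every astrocyte library was above every microglia library, as for 20.1% of all genes tested. Among the other 4 the Slit1 libraries overlapped, since WT microglia library 1 (2.85 FPKM) was above WT astrocyte libraries 1 and 2. WT microglia library 2 (1.41 FPKM) was also above WT astrocyte library 1 (1.33 FPKM). In the same fit of all 13 libraries, the Slit1 difference between the WT groups was 0.43 (limma adjusted p = 0.419). Between the KO groups it was 1.61 (limma adjusted p = 0.00486).

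Oligodendrocyte genes moved with this comparison. The summed level of 10 oligodendrocyte markers, led by the myelin gene Mbp, was 4563 to 8197 FPKM in astrocytes and 1074 to 2646 FPKM in microglia, and all 10 passed the test as higher in astrocytes. The 8 markers of oligodendrocyte precursors, led by Olig1, summed to 381 to 528 FPKM in astrocytes and 47.5 to 73.4 FPKM in microglia, with 3 of 7 tested passing. Olig1 made up most of the astrocyte sum, with means of 390 FPKM in KO and 380 FPKM in WT astrocytes. It passed with Sox10 and Enpp6, while Pdgfra (-0.33), Cspg4 (0.12), Gpr17 (0.12) and Bmp4 (0.20) were not called. Nkx2-2 is also a gene of that lineage, and the part of oligodendrocyte RNA in its difference was not tested. The 10 astrocyte markers, led by Aldoc and with Slc1a2 listed at 0 in 2 of the libraries, summed to 6242 to 10868 FPKM in astrocytes and 65.0 to 105 FPKM in microglia, and the 10 microglia markers to 8.82 to 70.1 FPKM and 9073 to 10000 FPKM. In bulk libraries such as these, a smaller share of cells with a gene and less RNA of it per cell cannot be told apart.

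The wider set of patterning factors was present in part. The same limit holds for these lists, since a gene under 1 FPKM in microglia entered the test through its astrocyte level, and counts are therefore given apart for genes with a microglia mean of at least 1 FPKM, to be read against the 29.1% of all genes called higher. Of 23 dorsal factors 9 were tested, and 2 of these reached 1 FPKM in microglia, with 1 of the 2 higher in astrocytes; of the other 7, 6 were higher. Dbx2, a factor of the dorsal-ventral boundary, was higher by 4.81, with means of 37.9 FPKM in KO and 37.0 FPKM in WT astrocytes, against 0.283 FPKM in KO and 0.431 FPKM in WT microglia. Zic1, a zinc finger factor of the dorsal neural tube, was higher by 4.52, and Msx2, a target of BMP signals, by 1.86 with every microglia library listed at 0. Zic1 shares 60 bp of exon with Zic4 on the other strand, and the sources used here do not say if reads were assigned by strand, so the pair is uncertain. The factors Gsx2, Msx3, Atoh1, Neurog1, Neurog2 and Dbx1 were listed at 0 in every astrocyte library.

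Of 13 intermediate and ventral factors 7 were tested. Of the 5 that reached 1 FPKM in microglia 3 were higher in astrocytes, namely Pax6, Nkx2-2 and Olig2, and of the other 2 Nkx6-1 was. Olig2, the factor of motor neuron and oligodendrocyte progenitors, was higher by 3.12, with means of 74.3 FPKM in KO and 70.8 FPKM in WT astrocytes, against 5.74 FPKM in KO and 8.97 FPKM in WT microglia. Foxa1 and Foxn4 were listed at 0 in all astrocytes and microglia. Nkx2-2 shares 278 bp of exon with its antisense transcript Nkx2-2os, and Reln shares 246 bp with Gm10475, which stayed at or below 2.87 and 3.90 FPKM in every library.

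The hedgehog pathway, which sets ventral identity, had 9 of 12 genes tested. Of the 3 that reached 1 FPKM in microglia 2 were higher in astrocytes, and all 6 others were. Gli2, a transcription factor of the pathway, was higher by 5.23 and Ptch1, the hedgehog receptor, by 4.97, with Ptch1 means of 132 FPKM in KO and 130 FPKM in WT astrocytes. Smo, the signal transducer, was higher by 1.82, and Gli1, a direct target of hedgehog signals, by 1.11. Exons of Gli1 overlap Arhgap9 by 62 bp on the other strand. Shh, the ligand, averaged 0.323 FPKM in KO astrocytes, was listed at 0 in every WT astrocyte library, and missed the minimum for testing.

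The receptors for the secreted members were also measured. Of 7 Slit and Robo genes 4 were tested; the 2 that reached 1 FPKM in microglia, Slit2 and Robo2, were higher in astrocytes, as were the other 2. Among the receptors, Robo2 was higher by 4.70 and Robo1 by 4.41, with means of 55.1 and 29.5 FPKM in KO and 53.9 and 35.5 FPKM in WT astrocytes. All 5 genes of the reelin pathway that reached 1 FPKM in microglia were higher, as was the sixth, including the intracellular adaptor Dab1 by 2.41 (means 15.5 FPKM in KO and 15.3 FPKM in WT astrocytes) and the adaptors Crkl by 0.82 and Crk by 0.60. Of the class 3 semaphorins and their receptors 7 of 13 were tested. Of the 6 that reached 1 FPKM in microglia 1 was higher and 4 were lower, and the seventh, Sema3a, was higher. The semaphorin receptor Plxna1 was higher by 2.30, while the receptors Nrp2 (-1.65) and Nrp1 (-0.77) were lower, with Nrp2 at 4.94 FPKM in KO and 3.26 FPKM in WT astrocytes, against 15.3 FPKM in KO and 15.6 FPKM in WT microglia; 36% of all genes tested were lower in astrocytes. Of 9 netrins and receptors 6 were tested; of the 3 that reached 1 FPKM in microglia 2 were higher, as were all 3 others. Ntn1, the ligand, was higher by 3.58, its receptor Neo1 by 2.73, Ntn3 by 1.28 and the receptor Unc5c by 0.98.

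**Figure D2:**
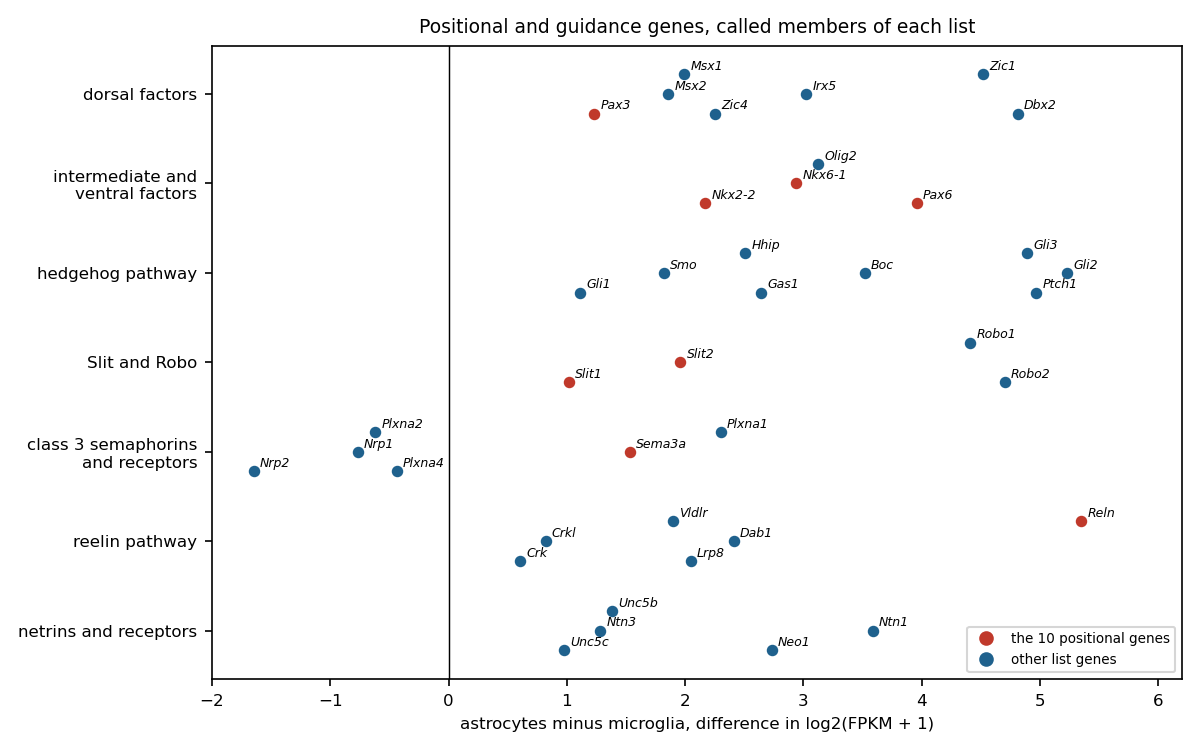
Difference in log2(FPKM + 1) of astrocytes minus microglia (x axis) for the genes of 7 pathway lists (rows) with an adjusted p under 0.05, with the positional genes in red and other genes in blue. Most points lie right of 0, from Reln at 5.35 down to Crk at 0.60, and 4 receptors of the semaphorin list lie left of it. Genes with a microglia mean under 1 FPKM entered the test through their astrocyte level, so their place right of 0 adds no support.

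KO and WT astrocytes were compared with the 4 KO and 3 WT libraries and age as a covariate. None of the 8 tested genes passed the test there, and limma called 3 of 13397 genes in all (0.0224%). Of the 8, Nkx6-1 alone had an unadjusted p under 0.05, as did 4.19% of all genes tested. The median of the 8 differences was 0.036, against 0.00126 over all genes.

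Nkx6-1 and Slit2 were the 2 genes of the 10 whose groups did not overlap, both with every KO library above every WT library, as held for 2.32% of the genes tested; for 4.68% the groups were apart in either direction. Nkx6-1 averaged 14.3 ± 4.99 FPKM in KO (SD, n = 4) and 7.97 ± 1.18 FPKM in WT (SD, n = 3), a log2 difference of 0.76 (SE 0.27, 95% interval 0.13 to 1.39, limma adjusted p = 0.921). Slit2 averaged 13.4 ± 7.03 FPKM in KO (SD, n = 4) and 6.25 ± 0.668 FPKM in WT (SD, n = 3), a difference of 0.87 (SE 0.37, 95% interval -0.00411 to 1.73, limma adjusted p = 0.921). On FPKM, a two-sided exact permutation test gave p = 0.0571 for Nkx6-1 and p = 0.0857 for Slit2, where the smallest p that 4 against 3 libraries allow is 0.0286. Neither difference was called. KO astrocyte library 1, highest in Slit2, also had the highest summed level of 13 neuron markers, 355 FPKM against 35.3 to 98.0 FPKM in WT astrocytes, and their part in the Slit2 value was not tested. Leaving out 1 library at a time, the difference stayed between 0.61 and 0.90 for Nkx6-1 and between 0.59 and 1.05 for Slit2.

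Sema3a lay the other way, with 2.17 ± 0.603 FPKM in KO (SD, n = 4) and 4.09 ± 1.71 FPKM in WT astrocytes (SD, n = 3). The difference was -0.66 (SE 0.39, 95% interval -1.58 to 0.26, limma adjusted p = 0.921), the exact permutation p was 0.0571, and the groups overlapped. It was -1.01 without KO library 2, without WT library 3 or in libraries of day 12 alone, and -0.40 without WT library 1. The intervals of the others all included 0: Slit1 at 0.49 (-0.35 to 1.33), Nkx2-2 at -0.37 (-1.34 to 0.60), Pax6 at -0.089 (-1.27 to 1.10), Pax3 at 0.062 (-0.86 to 0.99) and Reln at 0.010 (-0.55 to 0.57). For Pax6, leaving out WT library 2 moved the difference to 0.62. Slit1 was at 0.81 without KO library 2, without WT library 3 or at day 12 alone, and at 0.25 without WT library 1. Nkx2-2 was at -0.79 without WT library 2, at -0.61 without KO library 1, at -0.20 without KO library 2, KO library 3 or WT library 3, and at -0.07 without WT library 1. An adjusted p above the threshold does not show equal levels, and the intervals of Pax6, Nkx2-2, Slit1 and Sema3a reach past 1 log2 unit.

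None of the 7 pathway lists held a called gene in KO against WT astrocytes, and outside the 10 genes no listed pathway gene had an unadjusted p under 0.05. The authors' deposited table for astrocytes lists 10 genes and none of the 10 positional ones. Among markers of other cells, 3 of 7 tested endothelial and mural genes had an unadjusted p under 0.05 and none was called; Cldn5 of endothelial tight junctions differed by -2.03 and Flt1 by -1.23, and their part in the values above was not tested. The list as a whole, led by the pericyte gene Rgs5, summed to 30.6 to 55.4 FPKM in KO and 40.6 to 88.2 FPKM in WT astrocytes. The 7 tested markers of oligodendrocyte precursors had a median difference of 0.62 and the 9 tested neuron markers one of 0.64, with none called. In the first list Gpr17 alone had an unadjusted p under 0.05, at 0.80, and Bmp4 was at 1.11; the list summed to 423 to 528 FPKM in KO and 381 to 497 FPKM in WT astrocytes. Their part in the Nkx6-1 and Slit2 values was not tested.

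Between day 12 and day 9 no gene of the 10 was called, and limma called 13 of 13397 genes (0.097%) in the same fit, with 5 libraries of day 12, 2 of day 9 and genotype as a covariate. Slit1 and Reln had unadjusted p-values under 0.05, as did 8.61% of all genes tested. Both were lower in all 5 libraries of day 12 than in both libraries of day 9, as held for 6.44% of the genes tested; for 14.7% the ages were apart in either direction. The median of the 8 differences was -0.16, against 0.020 over all genes.

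Slit1 averaged 2.95 ± 1.29 FPKM at day 12 (SD, n = 5) and 9.34 ± 1.34 FPKM at day 9 (SD, n = 2), a log2 difference of -1.50 (SE 0.39, 95% interval -2.42 to -0.58, limma adjusted p = 0.327). Reln averaged 86.8 ± 17.2 FPKM at day 12 (SD, n = 5) and 147 ± 30.2 FPKM at day 9 (SD, n = 2), a difference of -0.76 (SE 0.26, 95% interval -1.37 to -0.14, limma adjusted p = 0.470). The two-sided exact permutation test gave p = 0.0476 for each, unadjusted, which is the smallest that 5 against 2 libraries allow. The ratio of Reln to Slit1 was 27.4, 23.8 and 22.1 in KO astrocytes of day 12 and 45.6 and 48.3 in WT astrocytes of day 12, against 14.9 in KO and 16.3 in WT astrocytes of day 9. Leaving out 1 library at a time, the difference stayed between -2.07 and -0.99 for Slit1 and between -1.08 and -0.47 for Reln.

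**Figure D3:**
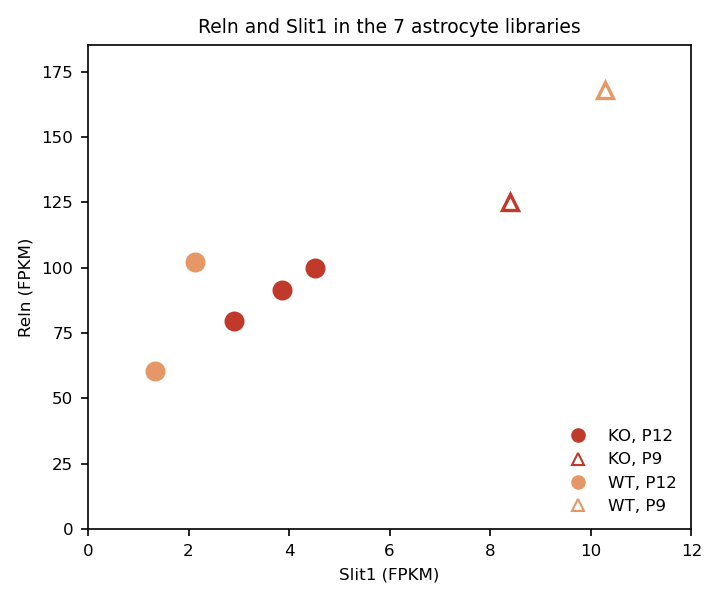
FPKM of Reln (y axis) against FPKM of Slit1 (x axis) in the 7 astrocyte libraries, KO in red and WT in orange, with filled circles for day 12 and open triangles for day 9, on linear axes that start at 0. The 2 libraries of day 9, at 125 and 168 FPKM of Reln and 8.40 and 10.3 FPKM of Slit1, lie above all 5 libraries of day 12 for both genes.

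Of the other members, Nkx6-1 differed by -0.53 (95% interval -1.22 to 0.16), Pax6 by 0.31, Slit2 by 0.28, Pax3 by -0.20, Sema3a by 0.14 and Nkx2-2 by -0.13, each with an interval that included 0. No pathway gene was called. Of the receptors and adaptors with an unadjusted p under 0.05, Dab1 differed by -0.80 (means 12.7 FPKM at day 12 and 22.3 FPKM at day 9, limma adjusted p = 0.413), Unc5a by -1.13 and Neo1 by -0.42, and the ligand Ntn1 differed by -0.55. These genes were singled out after their values were seen.

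Levels of markers of other cells also lay apart between the ages. The microglia markers summed to 48.2 to 70.1 FPKM at day 12 and 8.82 to 24.0 FPKM at day 9, and the neuron markers to 70.1 to 355 FPKM at day 12 and 35.3 to 55.0 FPKM at day 9. The 8 ependymal markers, led by Foxj1 at day 12 and by Dynlrb2 at day 9, summed to 0.736 to 8.36 FPKM at day 12 and 10.4 to 10.8 FPKM at day 9, with Tmem212 and Pifo listed at 0 in both. Dynlrb2 was listed at 0 in every library of day 12, where a 0 can be a failed estimate, and averaged 4.90 FPKM at day 9. Foxj1 (3.14 and 4.22 FPKM) and Meig1 (0.660 and 1.37 FPKM) also averaged less at day 12 than at day 9. Rsph1 (0.926 and 0.0639 FPKM), Ccdc153 (0.0620 and 0.0304 FPKM) and Tekt1 (0.0379 and 0 FPKM) averaged more. Cdh19, a cadherin of Schwann cell precursors, averaged 9.72 FPKM at day 12 and 3.74 FPKM at day 9, a difference of 1.18 (limma adjusted p = 0.290). Among the astrocyte markers 5 of 10 had an unadjusted p under 0.05, all above day 9, and among all lists Rgs5 of pericytes was the single called gene, at 2.06 (limma adjusted p = 0.0245). Their part in the Slit1 and Reln values was not tested.

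**Figure D4:**
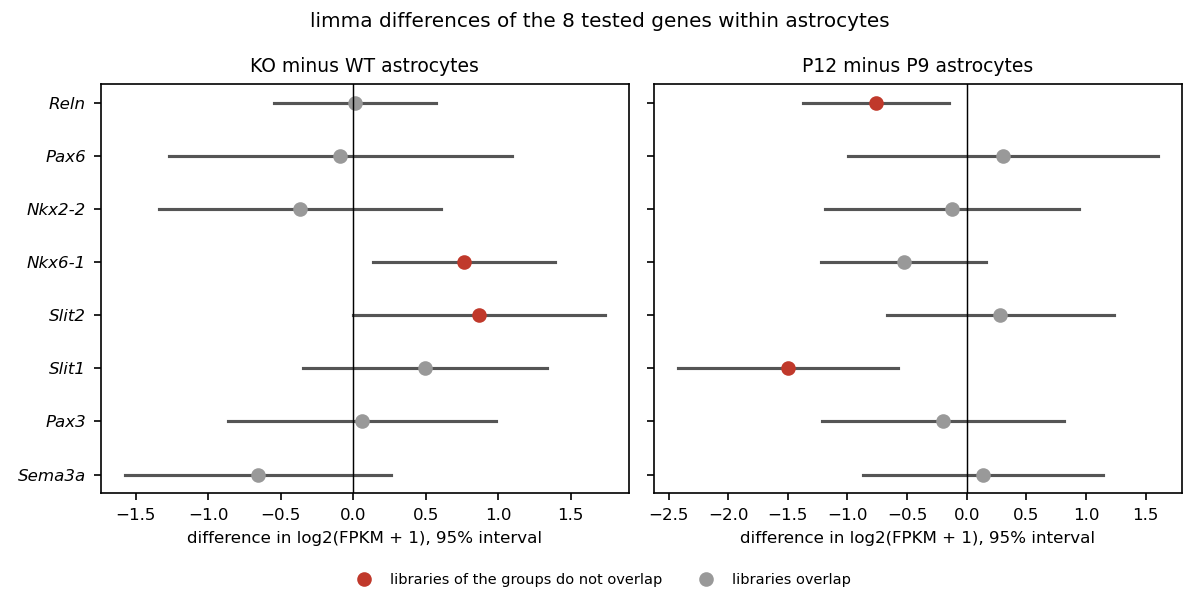
Differences in log2(FPKM + 1) with 95% intervals from limma for the 8 tested genes (rows), KO minus WT astrocytes on the left and day 12 (P12) minus day 9 (P9) astrocytes on the right; red marks genes whose libraries do not overlap between the groups. Nkx6-1 (0.76) and Slit2 (0.87) are red on the left, Slit1 (-1.50) and Reln (-0.76) on the right, and none has an adjusted p under 0.05.

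In microglia, where these genes are close to the lower end of the table, 4 of the 10 were tested between KO and WT and none was called, with 13 of 15889 genes called in all (0.0818%). Nkx2-2 averaged 1.83 ± 0.707 FPKM in KO and 4.01 ± 1.34 FPKM in WT microglia (SD, n = 3 each), a log2 difference of -0.82 (SE 0.32, limma adjusted p = 0.596). Pax6 averaged 0.902 ± 0.369 FPKM in KO and 2.36 ± 0.855 FPKM in WT microglia (SD, n = 3 each), a difference of -0.80 (SE 0.33, limma adjusted p = 0.596). In both genes all KO libraries were below all WT libraries, as for 7.48% of the genes tested, with 15.9% apart in either direction. Nkx2-2 alone of the 4 had an unadjusted p under 0.05, as did 7.96% of all genes. The exact permutation p was 0.1 for each, the smallest that 3 against 3 allow. Reln differed by -0.37 and Slit2 by -0.33, and their libraries overlapped.

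The authors' deposited table for microglia lists 483 genes, 277 of them lower in KO, and 1 of the 10 positional genes, Pax6. In the authors' deposited table Pax6 had a mean of 54.2 normalised counts in KO and 195 in WT, a log2 fold change of WT over KO of 1.39 with shrinkage (standard error 0.320, adjusted p 0.00245), so lower in KO. Its FPKM was at 0.684, 0.694 and 1.33 in KO and at 2.54, 1.42 and 3.10 in WT microglia, all below the lowest astrocyte library (21.4 FPKM).

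Oligodendrocyte markers summed to 1617 to 2646 FPKM in KO and 1074 to 1825 FPKM in WT microglia, and 6 of 10 had an unadjusted p under 0.05, none of them called. Their median difference was 0.84, from 0.40 for Ermn to 1.38 for Mal. Markers of oligodendrocyte precursors summed to 47.5 to 51.5 FPKM in KO and 49.7 to 73.4 FPKM in WT. The 7 tested had a median difference of -0.081, from -0.45 for Cspg4 to 0.14 for Olig1, and none was called. Astrocyte markers summed to 65.0 to 105 FPKM in KO and 66.9 to 95.1 FPKM in WT. Neuron markers summed to 14.3 to 20.5 FPKM in KO and 12.8 to 57.4 FPKM in WT. The part of these cells in the Pax6 and Nkx2-2 values was not tested. The difference between the KO effects in astrocytes and in microglia was called for none of the 8 tested genes, against 0.141% of all genes. Nkx6-1 alone had an unadjusted p under 0.05, as did 6.62% of all genes. The difference was largest for that gene, at 1.38 (SE 0.51, limma adjusted p = 0.709). In microglia alone Nkx6-1 missed the minimum for testing. WT microglia library 3 was at 2.09 FPKM there, against 0.456 and 0.0095 FPKM in WT microglia libraries 1 and 2.

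The genes whose pattern over the 13 libraries came nearest to each member were found among 11718 genes by the root mean square difference in log2(FPKM + 1) after centring, a description with no test, in which the gap between cell types weighs most. Nearest to Reln were Hoxc8 (0.338) and Vcam1 (0.373), to Pax6 B4galt2 (0.346) and Stxbp6 (0.383), to Pax3 Cstf2t (0.247) and Mmd (0.262), and to Nkx2-2 Pard3 (0.361) and Pip4p2 (0.399). Nearest to Nkx6-1 were Gstm6 (0.392) and Cplx2 (0.415), to Slit1 Smoc1 (0.353) and Efs (0.446), to Slit2 Tmem63b (0.380) and Ndufb4 (0.417), and to Sema3a Rab18 (0.321) and Ube2v2 (0.325). Hoxc8, a homeodomain factor of head-to-tail position, averaged 87.2 FPKM in astrocytes and 0.672 FPKM in microglia.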

How the data were processed

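Per the labels' protocols, RNA of the sorted cells was taken up in TRIZOL and made into NuGEN RNA-Seq V2 libraries. The submitters' processing notes name GRCm38, Cuffnorm, Cufflinks, DESeq2, HTSeq 0.6.1p1, Bowtie2 2.2.3 and TopHat2 2.0.11, and neither settings, strand nor annotation are stated. The authors deposited FPKM for 39171 genes; a count model was not applied to them. The authors' deposited tables of KO against WT, 1 per cell type, hold per the file headers each genotype's signal as normalised means, a log2 fold change of WT over KO, its test score, its p-value and its adjusted p. The absolute depth is unknown, and shallower libraries give noisier low values.

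Gene coordinates and overlaps came from the mouse GENCODE release M21 (37605 identifiers matched). Groups were compared with limma 3.58.1 in R 4.3.3 (two-sided, trend) on log2(FPKM + 1) for genes with a mean of at least 1 FPKM over the fitted libraries, at a Benjamini-Hochberg adjusted p under 0.05, and single genes also with an exact permutation test of FPKM. The KO against WT comparison of microglia and the difference between cell types were added after seeing the data. The limma p-values set a difference against the spread between libraries, and the number of animals behind each library is not stated. The genes, the 7 pathway lists, the 11 marker lists and the tests were chosen with earlier results of these data known. Named are all 10 genes, listed pathway genes called within astrocytes, the 2 largest and 2 smallest called differences per list between cell types, the 2 nearest genes by pattern, and the most abundant gene of each marker list. The fibroblast list was led by Col1a2 (35.6 to 55.2 FPKM summed in astrocytes, 2.72 to 19.2 FPKM in microglia), the muscle list by Tnnt3 (0.84 to 4.33 and 0.435 to 2.89 FPKM), the neuron list by Snap25 and the dorsal horn list by Lhx5 in WT; the Schwann list and some genes that the rule takes are not reported here. Alternatives were another filter, pseudocount, scaling or covariate, day 12 alone, a replicate block and leaving out each library.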

Additional observations from a re-analysis of the deposited data

How the results depend on the processing

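Libraries were few, their absolute depth is unknown, and age rests on 2 libraries of day 9, so only large differences could be called within astrocytes. The number of the 10 genes called within either cell type stayed at 0 under all alternatives run. Between cell types the differences of the 8 tested genes kept their direction, and Slit1 alone lost its call. This was so in the contrast of the WT groups within the full fit (0.43, limma adjusted p = 0.419). It was also so with the replicate number as a block (0.90, limma adjusted p = 0.0621). Samples with the same number did not deviate together (r -0.078 to 0.028). With so few libraries per group, this cannot exclude that the numbers pair the libraries. The count of all genes called for KO against WT astrocytes (3) was 0 with day 12 alone, 0 with no filter, 5 with a pseudocount of 0.1 and 0 with the replicate block, and 0 to 8 with 1 library left out (6 without KO 1, 0 without KO 2, 6 without KO 4, 1 without WT 1, 8 without WT 2 and 0 without WT 3). For KO against WT microglia (13) it was 7 with no filter, 25 with a pseudocount of 0.1, 3 with the replicate block and 18 to 48 with 1 library left out (48 without KO 1, 23 without KO 2, 32 without KO 3 and 27 without WT 3). For day 12 against day 9 (13) it was 20 with a filter at 0.1 FPKM, 35 with no filter, 25 without the genotype covariate, 7 with a pseudocount of 0.1, 0 with the replicate block, which leaves 1 degree of freedom, and 6 to 82 with 1 library left out (62 without KO 2, 6 without WT 2 and 82 without WT 3). Between cell types it was 9983 to 10550 with 1 library left out. Differences near 0 changed sign. For KO against WT astrocytes, Pax3 was at -0.0792 FPKM and at -0.056 with quantile normalisation; Reln was at -11.2 FPKM, at -0.053 without the age covariate and at -0.064 with the replicate block. With 1 library left out, Pax3 ranged from -0.29 to 0.43 (-0.29 without WT 2, -0.013 without KO 3), Pax6 from -0.58 to 0.62 (0.62 without WT 2, 0.098 without KO 3) and Reln from -0.28 to 0.19 (-0.28 without WT 1). In microglia Slit2 ranged from -0.72 to 0.061. For day 12 against day 9, Nkx2-2 ranged from -0.43 to 0.15, Pax3 from -0.45 to 0.036, Pax6 from -0.17 to 0.84 and Sema3a from -0.42 to 0.77. The cause was not tested.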
